A study of Homo sapiens with 3 samples.

Results

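The 39 genes described here are interferon-stimulated genes, that is, genes known from textbook biology to be transcribed after a cell has met interferon. They were taken by symbol from a list whose rule names no measured value, though the list was drawn up with earlier results of these data known, and all 39 were among the 43316 genes on the arrays. H1975 is a line of human non-small cell lung cancer harboring an EGFR with an activating and a drug-resistance mutation. OR1 and OR2 were selected from H1975 by stepwise exposure to osimertinib, an EGFR inhibitor, up to 2 μmol/L over 4 months, and were called independently established clones. All 3 lines were kept in RPMI medium with fetal bovine serum, and whether osimertinib was in the medium at harvest was not given in the sources used here. Total RNA of each line was hybridized to 1 Agilent single-colour array, so there were no replicates, no p-value could be computed, and each comparison is between 1 array and another. OR1 and OR2 are each 1 selected population of a single line, which limits both as models of resistance.

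Interferons are secreted proteins that warn cells of infection. Type I interferons bind the receptor IFNAR1 with IFNAR2, and type III interferons bind IFNLR1 with IL10RB. The receptor kinases JAK1 and TYK2 then phosphorylate STAT proteins such as STAT2, which join IRF9 and bind the interferon-stimulated response element (ISRE) in promoters, whereas the gamma-activated sequence (GAS) is the element that serves interferon gamma. The genes switched on in this way encode sensors of foreign RNA, the transcription factors of the pathway itself, and proteins that block viral replication. In tumor cells a part of this set is often transcribed without infection.

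Promoter sequences are shown because the ISRE is the promoter element best known for this class of genes. RefSeq promoters (GRCh38.p14) were found for 32 of the 39 genes, DDX58 among them under its newer symbol RIGI, and not for IRF7, IFIT2, OAS2, OASL, USP18, MX2 and TRIM22. The ISRE core GAAANNGAAA was searched on both strands in the 250 bases before each start, with overlapping matches counted separately. It was present in 18 of the 32 promoters (56.25%), against 1061 of 35116 RefSeq promoters (3.02%). The GAS core TTCNNNGAA, which reads alike on both strands, was present in 9 of the 32 (28.1%) and in 6.57% of all promoters. A match is a run of letters and not a measured binding site. Likewise, a promoter without an ISRE match lacks this exact run of letters in those 250 bases, which does not show that it has no ISRE. The 150 bases before the start are given below for 7 genes, chosen after their values were seen, whose printed stretch held every ISRE match found. IFI27 (chr14:94110586-94110735, plus strand), EPSTI1 (chr13:42992242-42992391, minus strand) and SAMD9 (chr7:93117980-93118129, minus strand) were lower in both resistant lines, and BST2 (chr19:17405631-17405780, minus strand) was higher in both. HERC5 (chr4:88456969-88457118, plus strand) and DDX60 (chr4:168318753-168318902, minus strand) were higher in OR2 than in OR1, and ISG15 (chr1:1013347-1013496, plus strand) was within 1.14-fold of H1975 in both lines. Sequences run from 5′ to 3′ in the direction of the gene, and capitals mark the ISRE core or its reverse complement.
IFI27: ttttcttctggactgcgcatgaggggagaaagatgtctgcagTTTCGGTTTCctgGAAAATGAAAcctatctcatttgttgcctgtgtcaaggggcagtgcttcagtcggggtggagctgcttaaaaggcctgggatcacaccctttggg
EPSTI1: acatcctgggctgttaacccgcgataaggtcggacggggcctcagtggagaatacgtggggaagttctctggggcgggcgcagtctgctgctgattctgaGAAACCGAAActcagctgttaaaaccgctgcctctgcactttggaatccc
SAMD9: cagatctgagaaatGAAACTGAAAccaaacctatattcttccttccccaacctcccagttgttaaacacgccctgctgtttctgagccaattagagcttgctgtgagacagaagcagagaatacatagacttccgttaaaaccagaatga
BST2: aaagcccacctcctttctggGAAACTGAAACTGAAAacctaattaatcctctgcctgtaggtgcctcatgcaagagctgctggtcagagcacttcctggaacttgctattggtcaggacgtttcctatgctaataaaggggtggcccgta
HERC5: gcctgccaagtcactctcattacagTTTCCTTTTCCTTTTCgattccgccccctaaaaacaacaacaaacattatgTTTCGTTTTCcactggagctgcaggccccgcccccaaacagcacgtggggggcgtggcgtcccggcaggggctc
DDX60: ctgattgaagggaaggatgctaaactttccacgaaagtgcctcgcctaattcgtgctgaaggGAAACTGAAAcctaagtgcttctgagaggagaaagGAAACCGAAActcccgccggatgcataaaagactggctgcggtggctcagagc
ISG15: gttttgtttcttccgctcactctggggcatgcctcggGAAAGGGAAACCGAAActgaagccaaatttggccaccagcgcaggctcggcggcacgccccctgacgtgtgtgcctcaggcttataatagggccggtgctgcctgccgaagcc
These 7 genes were chosen with their matches and values known. That the ISRE core stands before lower genes, higher genes and a gene near its H1975 level follows from this choice and is no separate result. Over the members with a matched promoter and a ratio, the median log2 ratio of OR1 to H1975 was -0.96 for the 17 with an ISRE core and -1.05 for the 13 without. The corresponding medians for OR2 were -0.14 (17 members) and -0.55 (14 members).

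Interferon-stimulated genes were mostly lower in OR1 than in H1975, and fewer of them were lower in OR2. Intensities are given scaled, in units of the 75th percentile of the array, so that a value of 1 is the 75th percentile itself. By the scanner software's own call, 36 of the 39 passed as well above background on each of the 3 arrays. TRIM22, a RING-finger antiviral protein, was well above background on none (scaled intensity 0.0357 (H1975), 0.0186 (OR1) and 0.0356 (OR2)) and has no ratio. OAS1 was dim in OR1, and EPSTI1 was dim in OR1 and OR2, so that their ratios on those sides are bounds. The methods' limits of 2 and 0.5 were used for every ratio. In OR1, 20 of 38 members (52.6%) were at or below a ratio of 0.5 to H1975, where 9.58% of all 21868 genes tested were. Only BST2 and GBP1 were at or above 2 in OR1, 2 of 38 against 9.17% of all genes. In OR2, 10 of 38 members (26.3%) were at or below 0.5, against 8.7% of all genes. BST2, IFIT2, HERC5 and MX2 were at or above 2 in OR2, 4 of 38 against 7.72%. Low in both lines were 10 members, every member low in OR2, where 6.32% of all genes were low in both, and a further 10 were low in OR1 alone. Since both ratios share the H1975 array, this overlap is no separate result, and over all genes 1417 of the 1886 low in OR2 were low in OR1 too. BST2 was the only member at or above 2 in both lines (5.09% of all genes were).

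**Figure D1:**
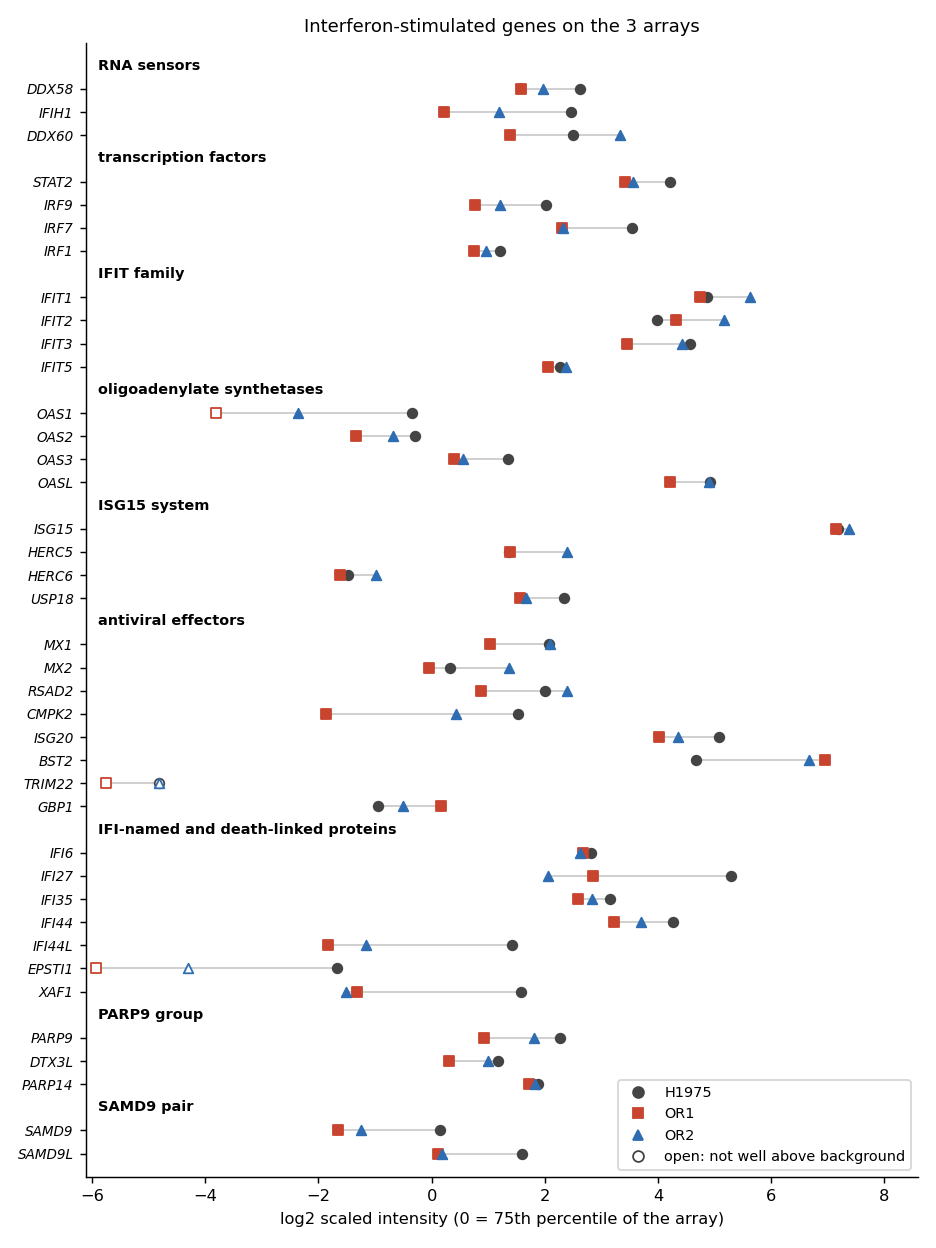
Scaled intensity of each interferon-stimulated gene on the log2 axis (0 is the 75th percentile of the array), 1 row per gene grouped by role, with a circle for H1975, a square for OR1 and a triangle for OR2; open symbols were not well above background. In most rows the OR1 square lies left of the H1975 circle, and for 21 of the 36 rows without an open symbol the OR2 triangle lies between an OR1 square on the left and the circle on the right. The share of all genes with this order was not computed.

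The shift covered members past the limits and members inside them. Among the 36 members well above background in both H1975 and OR1, 32 had a ratio below 1 (88.9%), where 47.7% of all genes did. For OR2 the number was 25 of 37 (67.6%), where 54.2% of all genes did. The median log2 ratio of the members was -0.998 in OR1 and -0.33 in OR2, beside 0.03 and -0.06 over all genes. The middle of the members' distribution ran from -1.24 to -0.19 (lower to upper quartile) in OR1 and from -0.82 to 0.19 in OR2. The scanner software's error estimates gave the members' log2 ratios a technical SD between 0.20 and 0.25, with a median of 0.20 in each comparison. This SD comes from each array's own estimate. It is therefore not a spread measured between arrays, and it holds no variation from culture to culture. Scaling the arrays on spike-in probes instead moved the median of all genes in OR1 by more than this SD (-0.60). From total RNA of a culture, fewer cells expressing a gene and less RNA of that gene per cell cannot be told apart.

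**Figure D2:**
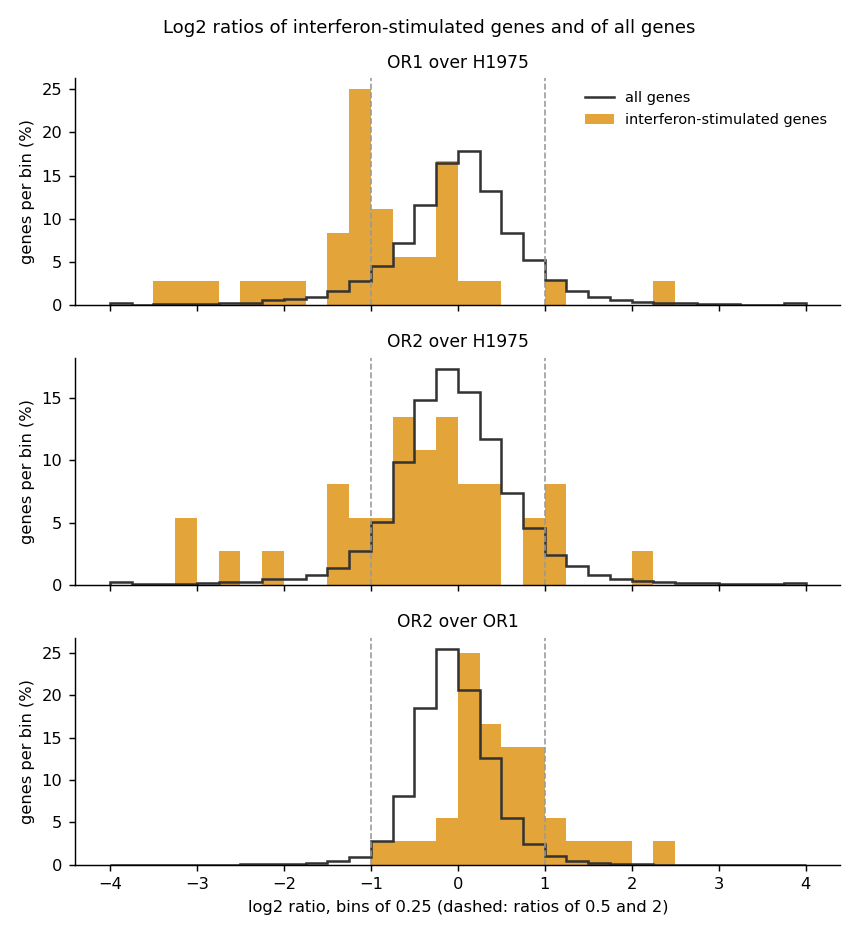
Share of genes (percent) in bins of 0.25 of the log2 ratio, in 3 panels for OR1 over H1975, OR2 over H1975 and OR2 over OR1, with filled bars for interferon-stimulated genes and a line for all genes well above background in both lines of the panel; the outermost bins hold everything beyond them. The members' bars pile up near the dashed limit of 0.5 in the OR1 panel and lie mostly right of 0 in the OR2 over OR1 panel.

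The sensors of foreign RNA were at or below 0.5 in OR1, all 3 of them. IFIH1 encodes MDA5, which detects long double-stranded RNA, and its probe spans bases 163128806 to 163128865 of chromosome 2 (hg19, as for all probes below). Its scaled intensity was 5.54 (H1975), 1.17 (OR1) and 2.27 (OR2), ratios of 0.211 (OR1) and 0.410 (OR2). Both resistant lines were below H1975, OR1 further than OR2. DDX58 encodes RIG-I, the sensor of short RNA with a 5′ triphosphate, and read 6.14 (H1975), 2.995 (OR1) and 3.93 (OR2). The ratio of DDX58 was 0.488 in OR1, close to the limit, and 0.641 in OR2, and a dimmer probe for the gene gave 0.524 and 0.896. DDX60 encodes a helicase linked to RIG-I signalling, and its probe lies on chromosome 4 from 169142891 to 169142950. The scaled intensity of DDX60 was 5.62 (H1975), 2.60 (OR1) and 10.1 (OR2). It was thus lowest in OR1 (ratio 0.463) and highest in OR2 (ratio 1.797), 3.88-fold higher in OR2 than in OR1.

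All 4 transcription factors of the list had ratios below 1 in both lines. IRF7, which amplifies the transcription of interferon genes, read 11.6 (H1975), 4.94 (OR1) and 5.02 (OR2). Its ratios of 0.425 in OR1 and 0.432 in OR2 made it the member of this group that was at or below 0.5 in both lines. IRF9, the DNA-binding partner of STAT2, read 4.08 (H1975), 1.71 (OR1) and 2.31 (OR2), ratios of 0.418 and 0.567. A dimmer IRF9 probe gave 0.566 and 0.554, so that the brighter probe alone placed IRF9 past the limit in OR1. STAT2 had ratios of 0.576 in OR1 and 0.630 in OR2. IRF1, the activator that is also induced by interferon gamma, had ratios of 0.728 and 0.840.

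The IFIT genes, a family of antiviral genes, did not share 1 direction. IFIT3 read 23.7 (H1975), 10.9 (OR1) and 21.5 (OR2), so that OR1 alone was low (ratio 0.460) while OR2 stood near H1975 (0.907). IFIT2, with a probe on chromosome 10 from 91068397 to 91068456, read 15.7 (H1975), 20.05 (OR1) and 35.8 (OR2). Its ratio was 2.28 in OR2 and 1.28 in OR1, the latter turning to 0.841 when arrays were scaled on spike-in probes. A second IFIT2 probe gave 2.01 in OR2 and 1.11 in OR1. IFIT1 had ratios of 0.920 in OR1 and 1.69 in OR2, and IFIT5 had 0.868 and 1.08. All 4 IFIT genes, which lie side by side on chromosome 10, had OR2 over OR1 ratios above 1, between 1.24 and 1.97.

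The oligoadenylate synthetases make the messenger that activates RNase L, which degrades RNA in infected cells. OAS1, with a probe on chromosome 12 from 113354461 to 113354520, read 0.789 in H1975 and 0.195 in OR2, and 0.0716 in OR1, where it was not well above background. OAS1 was therefore at least 9.56-fold lower in OR1 than in H1975, and its ratio in OR2 was 0.247, which normexp background correction raised to 0.498. It was at least 2.36-fold higher in OR2 than in OR1, a bound that dropped to 1.17 with normexp. OAS2 read 0.814 (H1975), 0.395 (OR1) and 0.625 (OR2), ratios of 0.485 and 0.767, and both of its dimmer probes were not well above background in OR1. OAS3 had ratios of 0.514 and 0.575, just outside the limit in OR1. Its dimmer probe gave 0.958 in OR1. OASL, a relative without synthetase activity that assists RIG-I, had ratios of 0.613 and 0.987.

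Of ISG15 and the enzymes that attach or remove it, none was at or below 0.5 in either line. ISG15 is a ubiquitin-like protein, and its scaled intensity was 145 (H1975), 142 (OR1) and 165 (OR2). The ratios of 0.980 in OR1 and 1.14 in OR2 lie within 1 technical SD of 1. HERC5, the main ligase that joins ISG15 to other proteins, read 2.59 (H1975), 2.60 (OR1) and 5.26 (OR2). Its ratio was 1.01 in OR1, which spike-in scaling turned to 0.663, and 2.03 in OR2, which normexp background correction lowered to 1.95. HERC6, a relative in the same gene cluster, had ratios of 0.902 and 1.41. USP18, the protease that removes ISG15 and restrains the type I receptor, had 0.579 and 0.621.

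The antiviral effectors held the highest ratio of OR1, in BST2, and the lowest that is not a bound, in CMPK2. BST2, or tetherin, holds budding virus at the cell surface, and its probe lies on chromosome 19 from 17513748 to 17513807. BST2 read 25.5 (H1975), 124 (OR1) and 102 (OR2), ratios of 4.85 (OR1) and 4.002 (OR2). A second BST2 probe, from 17514054 to 17514113, gave 5.06 and 4.48, so that both probes placed both resistant lines far above H1975. The 20 genes nearest to BST2 had a median log2 ratio of 0.89 (OR1) and 0.73 (OR2), beside 0.03 and -0.06 over all genes. Whether the neighbourhood has a part in the BST2 ratio was not tested. GBP1, a large GTPase induced mainly by interferon gamma, read 0.517 (H1975), 1.12 (OR1) and 0.703 (OR2). Its ratio of 2.16 in OR1 was the other one at or above 2, and it fell to 1.43 with spike-in scaling, 1.90 without scaling and 1.68 with normexp.

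CMPK2, a mitochondrial nucleotide kinase, lies beside RSAD2 on chromosome 2 and was measured by a probe from 6988467 to 6988526. It read 2.87 (H1975), 0.275 (OR1) and 1.35 (OR2), ratios of 0.0958 (OR1) and 0.470 (OR2). OR1 was far below the other 2 lines, and OR2 exceeded it 4.90-fold. RSAD2 encodes viperin, which makes a chain-terminating nucleotide, and read 4.004 (H1975), 1.84 (OR1) and 5.24 (OR2). OR1 lay below H1975 (0.460) and OR2 above it (1.31). MX1, a dynamin-like GTPase that blocks influenza virus, read 4.23 (H1975), 2.05 (OR1) and 4.24 (OR2). MX1 was thus low in OR1 alone (ratio 0.484, against 1.002 in OR2). MX2, its neighbour on chromosome 21 with activity against HIV, read 1.26 (H1975), 0.964 (OR1) and 2.58 (OR2). The ratio of MX2 was 0.768 in OR1 and 2.05 in OR2, but a dimmer probe, from 42735919 to 42735978, gave 1.71 and 1.17, so that the order of OR1 and OR2 differs between the probes. ISG20, a 3′ to 5′ exonuclease, read 33.6 (H1975), 16.2 (OR1) and 20.5 (OR2), ratios of 0.484 and 0.611.

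IFI27, IFI44L and XAF1 had ratios at or below 0.185 in both lines, as no other member with measured ratios had. IFI27 encodes a small mitochondrial protein, and its probe lies on chromosome 14 from 94582967 to 94583026. It read 38.9 (H1975), 7.19 (OR1) and 4.15 (OR2), ratios of 0.185 (OR1) and 0.107 (OR2). IFI27 was 1 of 5 members well above background in both resistant lines whose OR2 over OR1 ratio was below 1 (0.577). IFI44L, measured on chromosome 1 from 79107590 to 79107649, read 2.67 (H1975), 0.281 (OR1) and 0.449 (OR2). Both lines were far below H1975, with ratios of 0.105 and 0.168. Its neighbour IFI44 read 19.1 (H1975), 9.34 (OR1) and 12.9 (OR2), ratios of 0.488 and 0.676. XAF1, an antagonist of the apoptosis inhibitor XIAP, has its brighter probe on chromosome 17 from 6678819 to 6678878. It read 2.99 (H1975), 0.402 (OR1) and 0.350 (OR2), ratios of 0.134 and 0.117. The second XAF1 probe gave 0.166 and 0.173, so that both probes placed both lines low. EPSTI1 read 0.314 in H1975 and was not well above background in OR1 (0.0164) or OR2 (0.0507). It was at least 3.80-fold lower in OR1 and at least 4.03-fold lower in OR2. IFI6, another mitochondrial protein of the set, stayed near H1975 with ratios of 0.906 and 0.881, and IFI35, a partner of NMI, had 0.674 and 0.794.

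PARP9 and DTX3L encode an ADP-ribosyltransferase and its ubiquitin ligase partner, which share a promoter region on chromosome 3. PARP9 read 4.80 (H1975), 1.90 (OR1) and 3.49 (OR2), ratios of 0.395 and 0.727. A dimmer PARP9 probe gave 0.846 and 0.937, so that the size of the PARP9 difference depends on the probe. DTX3L had ratios of 0.551 and 0.887, and PARP14, a nearby ADP-ribosyltransferase, had 0.892 and 0.957. SAMD9 and SAMD9L are neighbouring antiviral and growth-restraining genes on chromosome 7. SAMD9 (probe from 92729782 to 92729841) read 1.11 (H1975), 0.318 (OR1) and 0.423 (OR2), ratios of 0.286 and 0.381. SAMD9L (probe from 92760219 to 92760278) read 3.01 (H1975), 1.08 (OR1) and 1.13 (OR2), ratios of 0.359 and 0.376, and its second probe gave 0.327 and 0.412. Both genes were low in both lines. The 20 nearest genes to the pair, chosen in the same way as for BST2, reached up to 1553.6 kb from it. Their median log2 ratio was -1.11 (OR1) and -0.47 (OR2). The part of these neighbours in the SAMD9 and SAMD9L ratios was not tested.

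OR2 was set directly against OR1 as well. The comparisons with H1975 share the H1975 array, so that its measurement error enters both ratios. In OR2 over OR1, 7 of 37 members (18.9%) were at or above 2, where 2.48% of all 21451 genes tested were. They were CMPK2 (4.90), DDX60 (3.88), RSAD2 (2.85), MX2 (2.68), OAS1 (at least 2.36), MX1 (2.07) and HERC5 (2.02). None of the 37 was at or below 0.5, against 2.89% of all genes, and no test was possible for this count of 0. IFIT3 at 1.97 and IFIH1 at 1.94 were just under the limit. Among the 36 members well above background in both lines, 31 (86.1%) had a ratio above 1, where 43.2% of all genes did. The 5 others were IFI27, GBP1, BST2, XAF1 and IFI6, and spike-in scaling, which raised every ratio of OR2 over OR1, turned BST2 to 1.31 and XAF1 to 1.39 and IFI6 above 1. The median log2 ratio of OR2 over OR1 was 0.43 for the members and -0.07 for all genes. For 21 of the 36 members well above background on all 3 arrays, OR1 was lowest and OR2 stood between OR1 and H1975, and OAS1, with a bound in OR1, had the same order. The share of all genes with this order was not computed. Since the order reuses the arrays of the ratios above, it is no separate result. In 8 members the ratio was below 1 in OR1 and above 1 in OR2, and the share of all genes with this split was not computed. Of these 8, DDX60, MX2 and RSAD2 lay more than 1 technical SD from 1 on both sides, again without a share of all genes to set beside them.

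**Figure D3:**
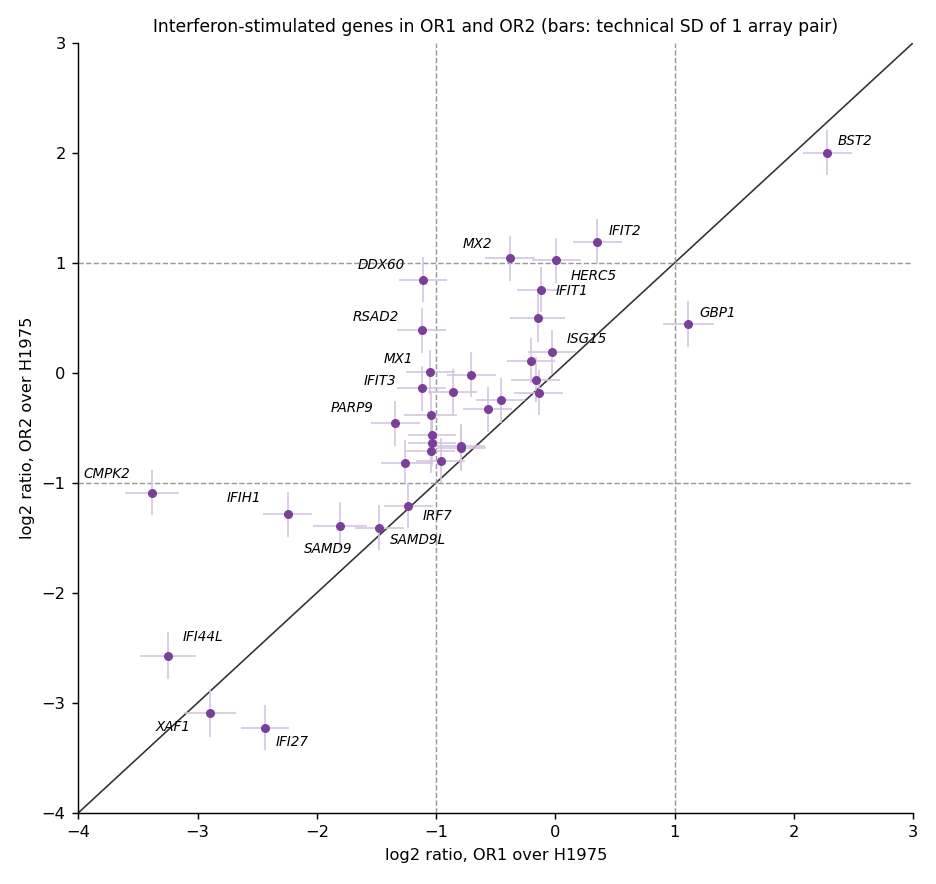
Log2 ratio of OR1 to H1975 on the horizontal axis and of OR2 to H1975 on the vertical axis, 1 point per interferon-stimulated gene well above background on all 3 arrays, with bars of 1 technical SD, dashed lines at ratios of 0.5 and 2 and a diagonal where the lines are equal. Most points lie above the diagonal, BST2 stands alone at the upper right, and IFI27, XAF1 and IFI44L stand at the lower left.

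The ratios depended on how the arrays were scaled and corrected for background. Scaling on the 7 spike-in probes moved the median of all genes by -0.60 in OR1 and by 0.67 in OR2 over OR1 on the log2 scale. The members' median minus that of all genes, which a constant per array cannot change, was -1.03 in OR1, -0.27 in OR2 and 0.49 in OR2 over OR1. Quantile normalization, which can change it, gave -0.99, -0.25 and 0.46, and normexp background correction, which pulls low intensities together, gave -0.83, -0.16 and 0.39. Normexp left OAS1 at most 0.426 in OR1 and took EPSTI1 (at most 0.650 and 0.595), SAMD9 (0.508 and 0.555), OAS2 in OR1 (0.693) and CMPK2 in OR2 (0.522) inside the limit of 0.5. The lowest ratios came closer to 1 as well, to 0.204 for CMPK2 in OR1 and, in OR1 and OR2, to 0.245 and 0.284 for IFI44L and to 0.238 and 0.212 for XAF1. Normexp also took MX1 (0.522) and RSAD2 (0.511) inside that limit in OR1, MX2 inside 2 in OR2 (1.79) and MX1 inside 2 in OR2 over OR1 (1.93). With quantile normalization DDX58 (0.505), IFI44 (0.513) and ISG20 (0.5001) were just outside the limit in OR1. With the median over a gene's probes, PARP9 was at 0.578 in OR1, and MX2 was at 1.55 in OR2 and 1.35 in OR2 over OR1. For 13 members the arrays carried more than 1 probe. Of 36 ratios from the other probes, 31 lay on the same side of 1 as the ratio of the brightest probe.

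**Figure D4:**
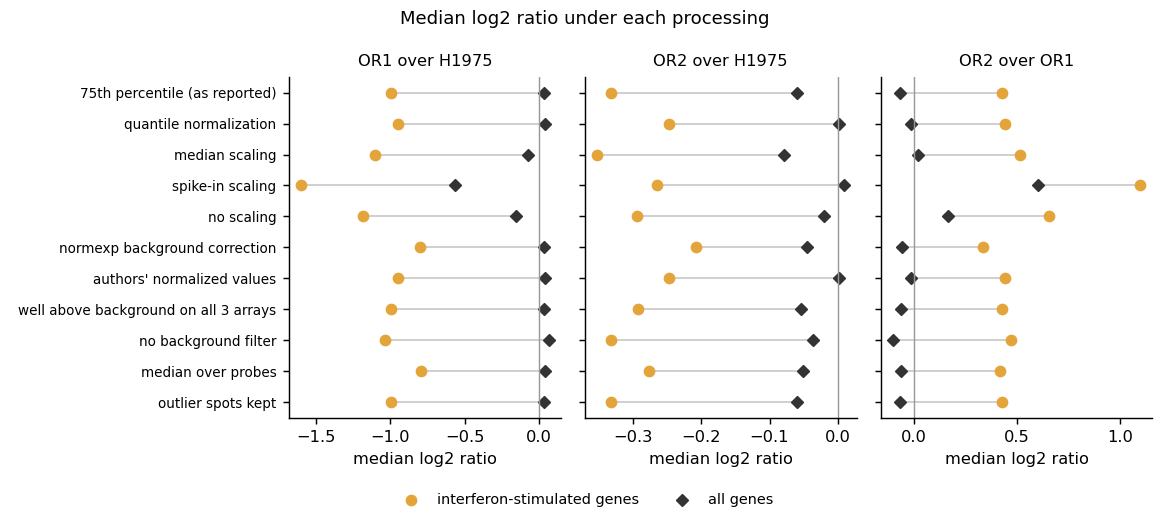
Median log2 ratio of the interferon-stimulated genes (circles) and of all genes (diamonds) in 3 panels for the 3 comparisons, with 1 row for each way of processing the arrays; the panels have horizontal axes of their own. The circles lie left of the diamonds in every row for OR1 and OR2 over H1975, and right of them in every row for OR2 over OR1.

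The genes that produce, receive and restrain the interferon signal were taken from lists of 91 further pathway genes, of which 87 were found on the arrays (CGAS, STING1 and SHFL under the older symbols MB21D1, TMEM173 and C19orf66), and IFNA1, IFNA5, IFNA13 and IFNA17 were not analysed here. Of 17 interferon ligands, 4 were well above background on any array, namely IFNA4, IFNE, IFNL1 and IFNL2. IFNB1 (scaled intensity 0.0174 (H1975), 0.0247 (OR1) and 0.0174 (OR2)) and IFNG (0.0188, 0.0198 and 0.0287) were not well above background in any line. IFNE, an epithelial type I interferon, read 0.379 in H1975 and 0.158 in OR2, which is 0.417 of H1975. In OR1 it was not well above background and at least 4.59-fold lower.

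Among the receptors, the chain specific to type III interferons stood apart from the others. IFNLR1 read 1.38 (H1975), 0.206 (OR1) and 0.197 (OR2), ratios of 0.150 and 0.143. These come from the brightest of 3 IFNLR1 probes, and values of the others are not given here. The unscaled intensity of IFNLR1 was low in OR1 (28.5) and OR2 (31.9), and normexp pulls low intensities together. Its partner IL10RB stayed near H1975 with ratios of 0.902 and 1.099. The type I chains were higher, IFNAR1 with 1.81 in OR1 and 1.92 in OR2, and IFNAR2 with 2.04 and 1.51. The chains for interferon gamma had ratios of 1.12 and 1.14 (IFNGR1) and of 1.86 and 2.08 (IFNGR2). TYK2, the kinase bound to IFNAR1, read 1.99 (H1975), 3.95 (OR1) and 4.06 (OR2), ratios of 1.99 and 2.04. JAK1 had 1.02 and 1.56, JAK2 had 0.634 and 1.25, and STAT3 had 0.848 and 0.959.

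Of the further sensors, adaptors and kinases upstream of interferon, listed apart from the sensors IFIH1, DDX58 and DDX60 described above, none was past a limit in either line. Of these 11 genes, 9 were well above background, with ratios between 0.633 and 1.76 in OR1 and between 0.738 and 1.84 in OR2. The lowest in OR1 was DHX58, a regulator of RIG-I and MDA5, and the highest in OR2 was MAVS, the mitochondrial adaptor of both sensors. TLR3 and ZBP1 were not well above background in any line. The restraints of the pathway had ratios between 0.738 and 1.88 in OR1 and between 0.935 and 1.85 in OR2. SOCS1, which inhibits the receptor kinases, was the highest of them in both lines.

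**Figure D5:**
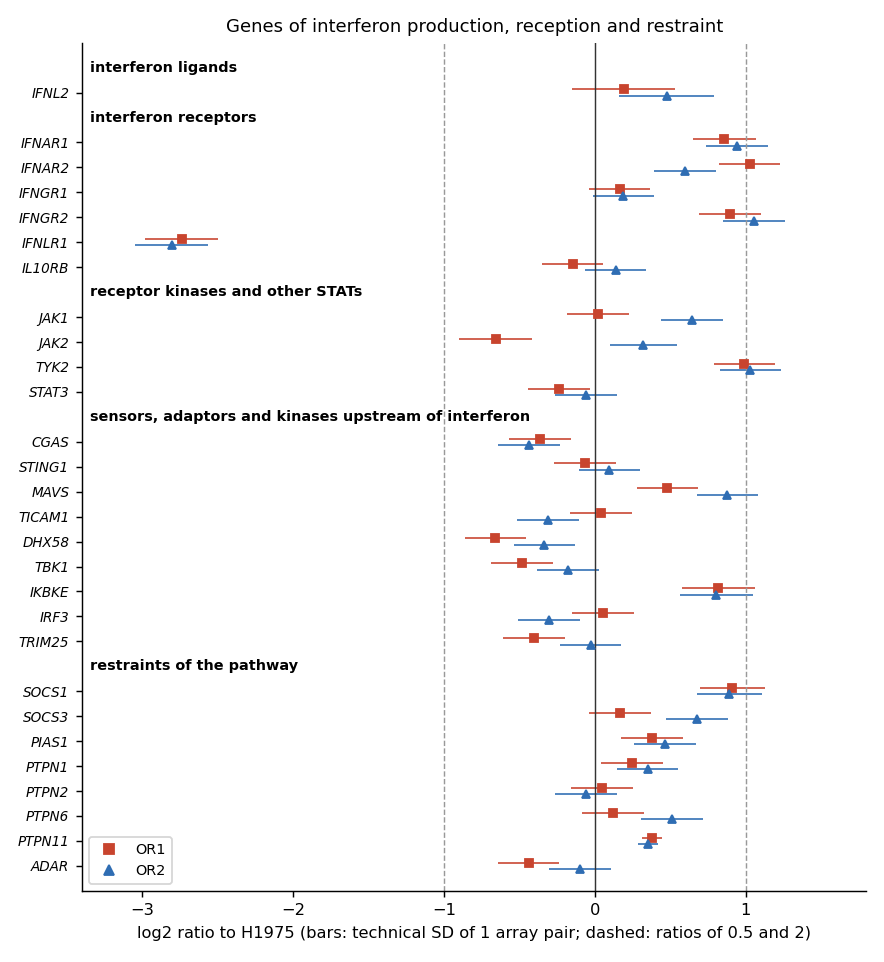
Log2 ratio to H1975 of genes that produce, receive or restrain the interferon signal, squares for OR1 and triangles for OR2, with bars of 1 technical SD and dashed lines at ratios of 0.5 and 2; genes that were dim on an array are not drawn. IFNLR1 is the only gene drawn left of the lower line, while IFNAR2, IFNGR2 and TYK2 reach the upper line in OR1 or in OR2.

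A further 39 interferon-stimulated genes outside the described set were listed as well. Of the 36 well above background, 9 were at or below 0.5 in OR1 and 3 were at or above 2, and in OR2 3 were low and 3 were high. The shares of all genes were 9.58% and 9.17% in OR1 and 8.7% and 7.72% in OR2, so that 3 of 36 is close to the background and only the low count in OR1 is above it. Their median log2 ratio was -0.25 in OR1 and -0.20 in OR2. IFITM1, a membrane protein that stops viral entry, read 56.8 (H1975), 7.81 (OR1) and 26.9 (OR2), ratios of 0.138 and 0.473. Its neighbours IFITM2 and IFITM3 were on the other side, with ratios of 1.48 and 1.48, and of 1.29 and 1.34. RTP4, a receptor chaperone, had 0.216 in both lines, and PARP12, an ADP-ribosyltransferase, had 0.347 and 0.380. Higher in both lines were GBP2 (4.61 and 5.03), which is a relative of GBP1, the restriction factor TRIM5 (2.37 and 2.03) and the death ligand gene TNFSF10 (3.17 and 3.94). The chemokine genes CXCL9, CXCL10 and CXCL11, which respond mainly to interferon gamma, were not well above background in any line.

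Markers of cell identity also differed between the lines. Of 7 epithelial markers, all well above background on all arrays, 5 were at or below 0.5 in OR1 and 3 in OR2. The shares of all genes were 9.58% and 8.7%. The markers' summed scaled intensity was 1665 (H1975), 939 (OR1) and 938 (OR2). Most of that sum came from KRT19 and KRT18 (952 and 476 in H1975). CDH1 had ratios of 0.0205 and 0.0800, EPCAM 0.0370 and 0.0725, MUC1 0.241 and 0.594, and KRT19 0.463 and 0.492, while KRT8 and KRT18 lay between 0.806 and 1.12. NKX2-1, a lung lineage factor, had 0.252 in OR1 and 1.36 in OR2. Of the leukocyte markers, CD3E was not well above background in any line, PTPRC had scaled intensities between 0.127 and 0.150, and CD14, a monocyte receptor, had ratios of 4.25 and 6.56. The 4 leukocyte markers found on the arrays (CD68 and LYZ were not analysed here) summed to 3.67, 8.80 and 13.5 in H1975, OR1 and OR2. Of the fibroblast markers COL3A1, DCN and PDGFRA were not well above background in any line and LUM was so in OR1 alone. COL1A1 read 2.93 (H1975), 4.24 (OR1) and 0.536 (OR2), and COL1A2 read 1.27, 0.205 and 0.0349, the last not well above background. The 6 fibroblast markers summed to 4.27, 4.96 and 0.646. Of the endothelial markers, PECAM1 had ratios of 2.10 and 1.19, VWF 0.776 and 0.927, and CDH5 0.664 and 1.21, and the 3 summed to between 0.565 and 0.709. The part of these differences in the interferon-stimulated genes was not tested.

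Each array measured 58200 probes, of which between 45.6% and 45.9% were well above background, and no spot was saturated. The 75th percentile lay at an intensity of 157 (H1975), 138 (OR1) and 162 (OR2). OR1 thus had the lowest 75th percentile, and it had the most outlier spots (61, against 45 in H1975 and 46 in OR2). Spike-in scaling moved the all-gene median of OR1 over H1975 by -0.60 on the log2 scale and that of OR2 over H1975 by 0.07.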

How the data were processed

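Total RNA of H1975, OR1 and OR2 was labelled with Cy3 and hybridized by the authors to 1 Agilent human array per line. The deposited scanner files hold the intensity of each spot, corrected for background and spatial trends within its array and not scaled between arrays. The labels name Feature Extraction 9.5.1.1, and the file headers give 10.7.1.1. The authors also deposited a table of normalized intensities, whose normalization is not given in the sources used here; it was used as an alternative only. Control and outlier spots (45 to 61 an array) were left out, repeated spots were averaged on the log2 scale, and each array's 75th percentile was subtracted. The brightest probe by mean normalized log2 intensity stood for a gene. A gene counted as tested where it was well above background on at least 1 of the 2 arrays of a ratio. A dim side was set to the lowest intensity called well above background on that array, or to its own where that was higher, which gives a bound. Ratios were compared with 2 and 0.5, the limits of the methods, without a test, since the number of arrays limits the precision. The technical SD comes from the scanner software's error estimate on each array and is not a spread between arrays.

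The members and lists were chosen with earlier results of these data known. Every member at or past 2 or 0.5 in any comparison is given with its value on every array, other members by role, and every pathway gene past a limit in both lines is named. The values of 1 pathway gene are not reported here. Probe positions are on hg19 as deposited. Whether a probe lies in an exon, intron or untranslated region was not worked out. Promoters and gene symbols came from RefSeq tables on GRCh38.p14. The alternatives were quantile, median, spike-in and no scaling, normexp background correction with an offset of 50, the authors' normalized intensities, both other background filters, the median over a gene's probes, outlier spots kept, and limits of 1.5 and 4. The counting was tested on simulated data. R 4.3.3 with limma 3.58.1 and Python 3.11.15 with matplotlib 3.10.9, scipy 1.17.1, pandas 2.3.3 and numpy 2.4.6 were used.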

Additional observations from a re-analysis of the deposited data

Results flagged for a closer look

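DDX60, MX2 and RSAD2 moved to opposite sides of H1975 in OR1 and OR2, each by more than 1 technical SD. The ratio of OR2 over OR1 was 3.88 for DDX60, 2.68 for MX2 and 2.85 for RSAD2. A gene below H1975 in OR1 and above it in OR2 has such a ratio above 1 by construction. The share of all genes with this split was not computed. No test of OR1 against OR2 could be run on 1 array each, so these differences are untested. The dimmer MX2 probe gave an OR2 over OR1 ratio of 0.681, on the other side of 1. The second RSAD2 probe was not well above background in any line, and DDX60 had 1 probe.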

How the results depend on the processing

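No paired analysis was possible because each line has 1 array. Culture variation cannot be separated from line differences, and dim genes (OAS1, EPSTI1) have bounds only. Over 735 ratios of named members under the alternatives, none crossed to the other side of 1 when it had been past a limit, 633 moved by less than 1 technical SD and 102 by more, 48 of them with spike-in scaling and 20 with normexp. Of 425 ratios past a limit, 25 fell inside it, 14 with normexp.

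Members at or above 2 in OR1 over H1975 numbered 2 as reported, and 1 with spike-in scaling, no scaling, normexp or a limit of 4, where members at or below 0.25 numbered 6 against 20. Under a limit of 4, OR2 over H1975 had 1 higher and 5 lower member, OR2 over OR1 had 1 higher, and 4 were lower in both lines. Normexp left 2 members higher in OR2. At a limit of 1.5, 16 were lower in OR2, 16 lower in both lines, and OR2 over OR1 had 17 higher and 2 lower. The shares of all genes were computed for the reported processing only, and not for the alternatives or for limits of 1.5 and 4. No count under an alternative or at these limits, of members or of pathway genes, can therefore be set against a background. Members higher in OR2 over OR1 numbered 22 with spike-in scaling and 12 without scaling. The members' median log2 ratio was then 1.096 and 0.66, and that of all genes rose to 0.60 and 0.16. The members' median minus that of all genes stayed at 0.49 with both. Whether the higher counts are particular to the members was not tested. In OR1 over H1975 the members' median was -1.60 with spike-in scaling, and that of all genes was -0.57. Of the 87 pathway genes found, some of them well above background on no array, those higher in both lines numbered 3. This count was 1 with normexp, 11 at a limit of 1.5 and 1 at a limit of 4. Pathway genes lower in both lines numbered 5, and 9 at 1.5 and 2 at 4. Of all genes tested, 5.09% were at or above 2 and 6.32% at or below 0.5 in both lines. The counts of 3 and 5 are near those shares and are no result about the pathway. Shifts of all genes by over 0.1 on the log2 scale, beyond those of spike-in scaling, were -0.19 in OR1 and 0.23 in OR2 over OR1 without scaling, and -0.11 in OR1 with median scaling. The cause of these differences was not tested.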

Other observations

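The surroundings of the gene clusters in the set were measured as the median log2 ratio of the 20 genes nearest to each on hg19. Around the IFIT cluster it was -0.18 in OR1 and -0.12 in OR2, around the OAS cluster 0.23 and 0.19, and around PARP9, DTX3L and PARP14 0.04 and 0.00. Around RSAD2 and CMPK2 it was -0.16 and -0.25, around HERC5 and HERC6 0.02 and 0.10, and around MX1 and MX2 0.48 and 0.34. Around IFI44 and IFI44L it was 0.23 and 0.07, around XAF1 0.21 and 0.17, and around IFI27 -0.33 and -0.59. Around the interferon receptor genes of chromosome 21 it was 0.24 and 0.25. The surroundings of BST2 (0.89 and 0.73) and of SAMD9 with SAMD9L (-1.11 and -0.47) were the farthest from 0 in OR1 among the 12 sites looked at.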
